A study of Homo sapiens with 18 samples.

Results

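MHC class II genes and CIITA were followed through RNA-seq of MSC-hTERT, a human mesenchymal stem cell line immortalized with telomerase (hTERT). The 9 genes are HLA-DRA, HLA-DRB1, HLA-DPA1, HLA-DPB1, HLA-DMA, HLA-DMB, HLA-DOA, CD74 and CIITA, of 61487 gene identifiers counted. They were chosen by symbol after HLA-DRA had been seen raised with SRF-PDGFRB, so their values and counts of calls in the SRF-PDGFRB comparisons are a description and support nothing. The 18 libraries form 6 groups of 3: pMSCV, a retroviral vector that served as the control here, SRF (serum response factor, a transcription factor), and 4 fusions of SRF, namely SRF-PDGFRB, SRF-RELA, SRF-ICA1L and SRF-FOXO1. The cells of all 6 groups carried hTERT and were grown in the same MEM α medium with serum, FGF-2, ascorbic acid and heparin. Whether the 3 libraries of a group came from separate cultures or separate transductions is not given in the sources used here, so p-values measure the spread between these libraries, which may be technical.

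MHC class II molecules present peptides from endosomes to CD4 T cells. Each pairs an alpha with a beta chain (HLA-DRA with HLA-DRB1, HLA-DPA1 with HLA-DPB1), and professional antigen-presenting cells carry them at rest. CD74, the invariant chain, holds new class II molecules in the secretory route and fills their groove until HLA-DM (HLA-DMA with HLA-DMB) exchanges its remnant for peptide, a step that HLA-DO (HLA-DOA with HLA-DOB) restrains. CIITA is the coactivator that switches the whole set on. It does not bind DNA itself but joins the RFX, CREB and NF-Y factors that sit on the X and Y boxes of class II promoters, and in stromal cells it is classically induced by interferon-gamma, in part through IRF1.

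The promoter windows of these genes show that shared layout in part. RefSeq start-site windows (GRCh38.p14, 250 bases before to 50 after a start) were at hand for 7 of the 9 genes, in 8 entries. HLA-DRA and CIITA had no entry. The letters GATTGG, the Y box core, and GCAAC, part of the X box, were searched on both strands. The sequences below run 5′ to 3′ on the gene's own strand, which is the minus strand for each, from 150 to 31 bases before the start, with both motifs in capitals. HLA-DRB1 and HLA-DRB5 are shown because they are hard to tell apart in read counts, HLA-DOA and HLA-DMA because they hold 2 and 1 of the motifs in this stretch, and CD74 because its window holds none.
HLA-DRB1, chr6:32589879-32589998: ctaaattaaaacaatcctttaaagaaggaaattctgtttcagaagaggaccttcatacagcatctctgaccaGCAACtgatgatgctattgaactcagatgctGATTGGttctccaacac
HLA-DRB5, chr6:32530318-32530437: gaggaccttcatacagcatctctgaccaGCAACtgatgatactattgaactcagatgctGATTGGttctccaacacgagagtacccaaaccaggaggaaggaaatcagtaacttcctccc
HLA-DOA, chr6:33009622-33009741: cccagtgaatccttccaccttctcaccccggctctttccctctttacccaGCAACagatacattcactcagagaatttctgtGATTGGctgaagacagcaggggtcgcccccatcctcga
HLA-DMA, chr6:32953128-32953247: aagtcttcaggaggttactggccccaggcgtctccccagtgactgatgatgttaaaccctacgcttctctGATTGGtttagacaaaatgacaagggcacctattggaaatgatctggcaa
CD74, chr5:150412941-150413060: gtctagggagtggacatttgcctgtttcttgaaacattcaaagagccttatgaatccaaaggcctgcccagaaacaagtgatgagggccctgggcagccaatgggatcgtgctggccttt

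In HLA-DRB1 the GCAAC shown began 78 bases before the start and the GATTGG 47 bases before it, with a further GCAAC at 175 bases, outside the stretch shown. In HLA-DOA they began 100 and 68 bases before the start, and HLA-DMA had GATTGG at 80 bases and, outside the stretch shown, GCAAC at 215 bases. An HLA-DPA1 window held GCAAC alone, 98 bases before a start at position 33073649 of chromosome 6. GATTGG was found in 5 of the 7 genes with an entry, against 15.13% of 35116 windows of the same length, and GCAAC in 4, against 33.59%. GCAAC followed by GATTGG on 1 strand, with first bases 25 to 40 apart, was found in HLA-DRB1 and HLA-DOA and in 0.159% of all windows, a spacing chosen after these windows were seen. A match to a few letters describes the window and is not a binding site.

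Of the 9 genes, 5 had all 3 SRF-PDGFRB libraries above the other 15 libraries: HLA-DRA, HLA-DRB1, HLA-DPA1, CD74 and CIITA. HLA-DRA and HLA-DRB1 were close to unread outside SRF-PDGFRB, while HLA-DPA1, CD74 and CIITA were read at a low level in every group and stood higher there. HLA-DPB1, HLA-DMA, HLA-DMB and HLA-DOA overlapped with other groups. Among all 40522 genes with a count in any library, 0.449% had the 3 SRF-PDGFRB libraries above the other 15. HLA-DRA was chosen from these libraries, so nothing is read from that share. In such bulk samples, fewer cells of a type and less RNA per cell cannot be told apart. Levels are given as CPM, a library's counts of a gene scaled to its total.

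HLA-DRA (ENSG00000204287, chromosome 6, 32439842 to 32445046, plus strand of GRCh38) encodes the alpha chain of HLA-DR. In SRF-PDGFRB it stood at 2.44, 0.618 and 1.70 CPM in replicates 1, 2 and 3, from 70, 18 and 33 reads. In the other 15 libraries it ran from 0 to 0.0836 CPM, with 11 reads in all, spread over 8 libraries. The lowest SRF-PDGFRB library was thus above the highest of the others. The ratio of summed CPM was 63.0 over pMSCV (95% counting interval 17.1 to 526) and 42.8 over SRF (14.3 to 210). Over the 3 other fusions it was 58.7 (SRF-RELA), 60.3 (SRF-FOXO1) and 61.1 (SRF-ICA1L). These intervals cover counting error only, and their width comes from the 2 or 3 reads in each denominator.

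HLA-DRB1 (ENSG00000196126, chromosome 6, 32578769 to 32589848, minus strand), the partner beta chain, stood at 0.905, 0.172 and 0.362 CPM in SRF-PDGFRB replicates 1, 2 and 3, from 26, 5 and 7 reads. Elsewhere it had 2 reads, both in pMSCV replicate 3, at 0.0693 CPM. The SRF-PDGFRB sum was 19.8 times that of pMSCV (counting interval 5.11 to 169). Against the groups with 0 reads, with 3 reads over the group taken as the floor, it was at least 13.4-fold higher than SRF, 12.6-fold than SRF-FOXO1, 12.8-fold than SRF-ICA1L and 12.3-fold than SRF-RELA. Replicate 1 was the highest and replicate 2 the lowest for both DR chains. HLA-DRB1 fell under the count filter and was left out of the main fit. It was fitted where no filter was used, as given at the end. Its reads are uncertain, since HLA-DRB5 is a close copy. The promoter of HLA-DRB5 above holds the same pair of motifs, 122 and 91 bases before its start.

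HLA-DPA1 (ENSG00000231389, chromosome 6, 33064569 to 33080775, minus strand), the alpha chain of HLA-DP, was read in every library. It stood at 2.86, 0.995 and 3.20 CPM in SRF-PDGFRB, against 0.354, 0.258 and 0.519 in pMSCV and 0.223, 0.0383 and 0.278 in SRF. The other fusions spanned 0.324 to 0.470 CPM (SRF-FOXO1), 0.238 to 0.710 (SRF-ICA1L) and 0.311 to 0.596 (SRF-RELA). No library outside SRF-PDGFRB reached its lowest library. The fitted log2 difference was 2.59 (SE 0.51) over pMSCV, 3.60 (SE 0.56) over SRF, 2.40 (SE 0.51) over SRF-FOXO1, 2.20 (SE 0.50) over SRF-ICA1L and 2.39 (SE 0.51) over SRF-RELA. SRF replicate 2, the lowest library, had 1 read of HLA-DPA1.

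HLA-DPB1 (ENSG00000223865, chromosome 6, 33075926 to 33087201, plus strand), the beta chain that pairs with HLA-DPA1, did not part in the same way. It stood at 0.383, 0.343 and 0.671 CPM in SRF-PDGFRB, and the other 15 libraries ran from 0 to 0.537 CPM with a median of 0.185. SRF-FOXO1 replicate 1, at 0.537 CPM, lay above 2 of the 3 SRF-PDGFRB libraries. The ratio of summed CPM ran from 1.26 over SRF-FOXO1 (counting interval 0.735 to 2.16) to 4.01 over SRF (1.88 to 9.50). The exons of HLA-DPA1 and HLA-DPB1 overlap by 96 bases on opposite strands, and whether strand was used in counting is not given in the sources used here.

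CD74 (ENSG00000019582, chromosome 5, 150401637 to 150412929, minus strand), the invariant chain, had the most reads of the set. It stood at 12.3, 5.94 and 12.8 CPM in SRF-PDGFRB, a mean of 10.3 ± 3.82 (SD, n = 3). The values were 3.22, 1.33 and 2.87 CPM in pMSCV and 3.45, 1.91 and 3.99 CPM in SRF. SRF-FOXO1 had 1.71, 1.80 and 1.71 CPM, SRF-ICA1L had 1.82, 1.67 and 2.17, and SRF-RELA had 1.69, 1.30 and 2.51. The lowest SRF-PDGFRB library lay above the highest library elsewhere, which was SRF replicate 3. The fitted log2 difference was 2.04 (SE 0.36) over pMSCV, 1.68 (SE 0.35) over SRF, 2.48 (SE 0.37) over SRF-FOXO1, 2.33 (SE 0.36) over SRF-ICA1L and 2.44 (SE 0.37) over SRF-RELA.

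CIITA (ENSG00000179583, chromosome 16, 10866222 to 10943021, plus strand), the coactivator of the set, had the tightest SRF-PDGFRB replicates. It stood at 2.54, 2.33 and 2.74 CPM there, a mean of 2.54 ± 0.202 (SD, n = 3). The group means elsewhere were 0.893 ± 0.123 in pMSCV, 1.12 ± 0.266 in SRF, 0.959 ± 0.182 in SRF-FOXO1, 0.958 ± 0.295 in SRF-ICA1L and 0.874 ± 0.298 in SRF-RELA. The other 15 libraries ran from 0.533 to 1.42 CPM, so the groups did not overlap. The fitted log2 difference was 1.50 (SE 0.30) over pMSCV, 1.14 (SE 0.30) over SRF, 1.31 (SE 0.30) over SRF-FOXO1, 1.27 (SE 0.30) over SRF-ICA1L and 1.46 (SE 0.30) over SRF-RELA. CIITA was thus read in every library, also where HLA-DRA had no read. Its annotated exons overlap those of DEXI, on the opposite strand, by 2416 bases, and those of AC133065.3, on its own strand, by 2378 bases, so reads there could have been counted for either gene.

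The peptide-editing genes gave no such separation. HLA-DMA (ENSG00000204257, chromosome 6, 32948613 to 32969094, minus strand) stood at 2.51, 3.78 and 4.13 CPM in SRF-PDGFRB and between 1.41 and 5.49 CPM elsewhere, with the highest value in SRF-ICA1L replicate 2. Its partner HLA-DMB (ENSG00000242574, chromosome 6, 32934629 to 32941070, minus strand) had 4 reads in SRF-PDGFRB and 12 in the other 15 libraries, none above 0.139 CPM. The 2 chains of HLA-DM were thus unlike in level, one read in every library and the other near the floor. HLA-DOA (ENSG00000204252, chromosome 6, 33004178 to 33009612, minus strand) had 4, 0 and 3 reads in SRF-PDGFRB, at 0.139, 0 and 0.155 CPM, and 3 reads elsewhere, all in SRF replicates 1 and 3. A count of 0 allows 0.101 to 0.155 CPM in these libraries, read as at most 3 counts of the total, so single reads carry little. For HLA-DMB each counting interval of the ratios included equal levels, and a difference was not detectable at this depth. For HLA-DOA the sum was 2.27 times or more a floor of 3 reads over each group with 0 reads, and 2.48 times that of SRF (0.565 to 14.8). The values over a floor leave out the counting error of the 7 SRF-PDGFRB reads.

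**Figure D1:**
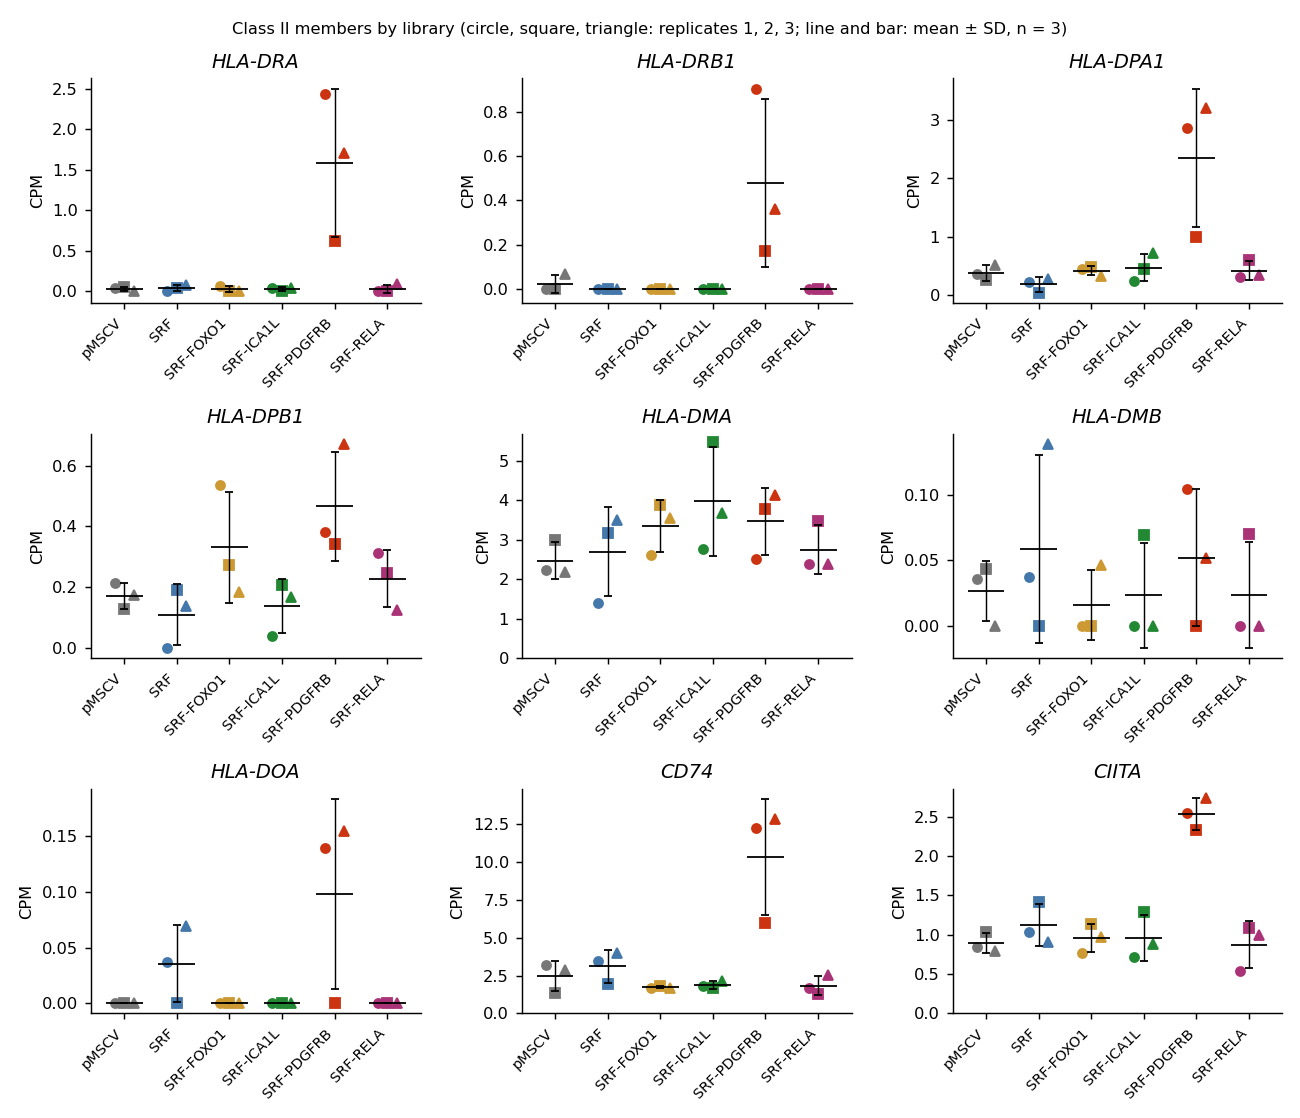
CPM (vertical axis, linear, a separate scale for each gene) of the 9 genes in the 6 groups. Points are libraries, with a circle, square and triangle for replicates 1, 2 and 3, and the line and bar are the mean ± SD of 3 libraries. HLA-DRA, HLA-DRB1, HLA-DPA1, CD74 and CIITA show the 3 SRF-PDGFRB points above all others, while HLA-DMA overlaps in every group.

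**Figure D2:**
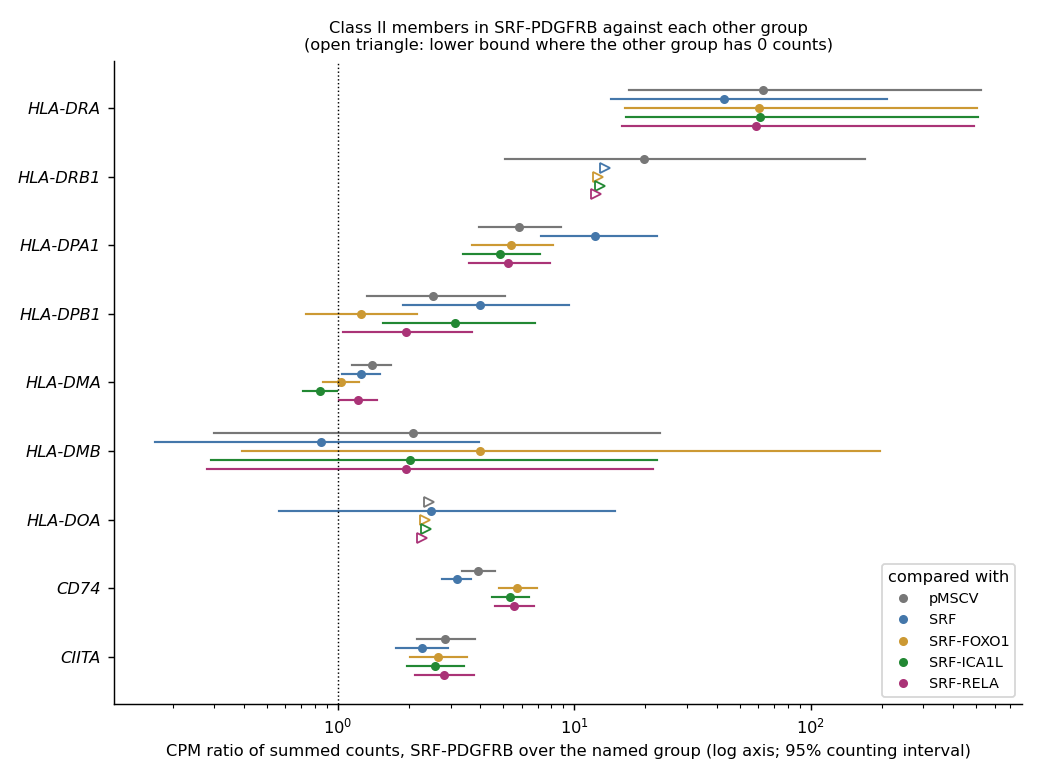
Ratio of summed CPM, SRF-PDGFRB over each other group (log axis), with 95% counting intervals as lines and the dotted line at equal levels. Open triangles are lower bounds against groups with 0 reads, set by a floor of 3 reads, and leave out the counting error of SRF-PDGFRB. The ratios of HLA-DRA lie between 42.8 and 63.0, those of CIITA between 2.26 and 2.84, and those of HLA-DMA between 0.838 and 1.39.

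Divided by merged exon length, so that genes can be set roughly side by side, the order of mean levels differed between SRF-PDGFRB and pMSCV. In SRF-PDGFRB, mean levels per kilobase were 3.25 CPM for CD74, 1.37 for HLA-DMA, 1.24 for HLA-DRA, 0.409 for HLA-DPA1 and 0.167 for HLA-DPB1. HLA-DMA (0.989 to 1.63) and HLA-DRA (0.483 to 1.90) overlapped library by library, as did HLA-DPA1 (0.173 to 0.557) and HLA-DRB1 (0.140 to 0.737). CD74, between 1.87 and 4.02 CPM per kilobase, lay above HLA-DMA in each pairing of libraries. In pMSCV the means opened with HLA-DMA at 0.976 CPM per kilobase (SD 0.183) and CD74 at 0.778 (SD 0.316). Those genes overlapped library by library there, with CD74 the higher in replicates 1 and 3, so their order was not settled. HLA-DPA1 (0.0656), HLA-DPB1 (0.0615), HLA-DRA (0.0204) and HLA-DRB1 (0.0188) lay far below. The merged exons of CIITA span 20757 bases, so its level per kilobase (0.122 CPM in SRF-PDGFRB) is low by construction and was not ranked. Those of the ranked genes span from 1229 bases (HLA-DRB1) to 5748 (HLA-DPA1), all annotated exons merged, so their order also depends on annotated length.

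Of the 9 genes, 6 passed the filter on low counts and were fitted with edgeR's quasi-likelihood test. With the SRF-PDGFRB libraries left out of the filter 4 passed, namely HLA-DPA1, HLA-DMA, CD74 and CIITA, so HLA-DRA and HLA-DPB1 entered only through SRF-PDGFRB. The choice of genes used the comparisons with that group, which share its 3 libraries. Calls there, at a Benjamini-Hochberg adjusted p under 0.05 over 18544 genes, are therefore counted beside the share of all genes called, and nothing is read from them. Against pMSCV 1 was called (HLA-DRA), where 0.0324% of all tested genes were called. Against SRF there were 2 (HLA-DRA and HLA-DPA1, background 0.146%), and against SRF-FOXO1 there were 3 (HLA-DRA, HLA-DPA1 and CD74, background 0.717%). Against SRF-ICA1L (background 0.82%) and SRF-RELA (background 0.162%) HLA-DRA and CD74 were called, 2 in each. With the replicate number as a block, 4 genes were called in each of these 5 comparisons, HLA-DRA, HLA-DPA1, CD74 and CIITA, with backgrounds of 0.178%, 2.34%, 4.35%, 4.76% and 0.847% in the order above. These counts turned on single libraries. Without SRF-PDGFRB replicate 1 or replicate 3, 0 were called against pMSCV or SRF, and 1 against SRF-RELA. Without its replicate 2, the lowest for HLA-DRA, 3 were called in each comparison. Leaving out any 1 pMSCV library left 0 called against pMSCV, and any 1 SRF library left 0 against SRF. The count was 1 against SRF-FOXO1 without SRF-PDGFRB replicate 1, 1 against SRF-ICA1L without SRF-ICA1L replicate 2, and 1 or 0 against SRF-RELA without SRF-RELA replicate 1 or 2.

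The other constructs were compared with pMSCV and with SRF, comparisons that the choice of genes did not use. The 4 genes that passed the filter without SRF-PDGFRB gave 28 tests, of which 0 were called by edgeR's quasi-likelihood test, with or without the replicate block, or by DESeq2. HLA-DRA, with 2 or 3 reads in each of these groups, and HLA-DPB1, with 9 to 27, are not counted there. Against pMSCV, the backgrounds were 0.027% of genes called with SRF (0.243% with the block), 0.928% with SRF-FOXO1 (7.03%), 0.469% with SRF-ICA1L (4.66%) and 0.183% with SRF-RELA (0.971%). Against SRF, SRF-FOXO1 had a background of 1.36% (7.23% with the block), SRF-ICA1L of 0.782% (4.73%) and SRF-RELA of 0.388% (1.73%). Over the 28 tests, fitted log2 differences ran from -1.01 to 1.40, and the lowest adjusted p of edgeR was 0.325, and 0.0649 with the block.

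An unadjusted p under 0.05 was found in 3 of those 28 tests, where 3.83% to 15.1% of all genes had one, depending on the comparison. With the block it was found in 7, where 8.18% to 23.1% of all genes had one. HLA-DMA had a log2 difference of 0.81 in SRF-ICA1L against pMSCV (SE 0.34, edgeR adjusted p 0.403, and 0.0649 with the replicate block), and of 0.46 without SRF-ICA1L replicate 2. HLA-DPA1 had one of 1.40 in SRF-ICA1L against SRF (SE 0.61, edgeR adjusted p 0.378). In SRF-FOXO1 against SRF, CD74 had one of -0.79 (SE 0.36, edgeR adjusted p 0.325). HLA-DPB1, outside that count, had one of 1.63 there (SE 0.69, edgeR adjusted p 0.284), and of 1.07 without SRF replicate 1. None passed the adjusted threshold, and with SEs of this size a smaller difference could be missed. The median log2 difference of the 4 genes ran from -0.13 to 0.31 over the 7 comparisons, beside -0.02 to 0.01 for all genes.

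Outside SRF-PDGFRB, libraries of 1 replicate number often took the same place within their groups for CIITA, CD74 and HLA-DMA, but not for HLA-DPA1. Replicate 2 held the highest CIITA level in 5 of the 5 other groups and the lowest CD74 level in 4 of them. It also held the highest HLA-DMA level in 4 of the 5. For HLA-DPA1 replicate 2 was the highest in 2 of the 5 and the lowest in 2. In SRF-PDGFRB replicate 2 was the lowest for both CIITA and CD74, as it was for HLA-DRA. The labels do not say what a replicate number marks. The SRF-PDGFRB libraries stood in the same order for their construct genes: PDGFRB reads, native and fusion together, came to 929.7, 526 and 673 CPM in replicates 1, 2 and 3, and SRF reads to 337, 159.6 and 261 CPM. That order, 1 over 3 over 2, was also that of HLA-DRA and HLA-DRB1, but not of HLA-DPA1, CD74 or CIITA, where replicate 3 was the highest. An order of 3 libraries is easily shared, and a link between construct reads and class II levels was not tested. PDGFRB elsewhere ran from 315 to 621 CPM. Those groups held no PDGFRB fusion by their labels, so the reads there are not the same measure.

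**Figure D3:**
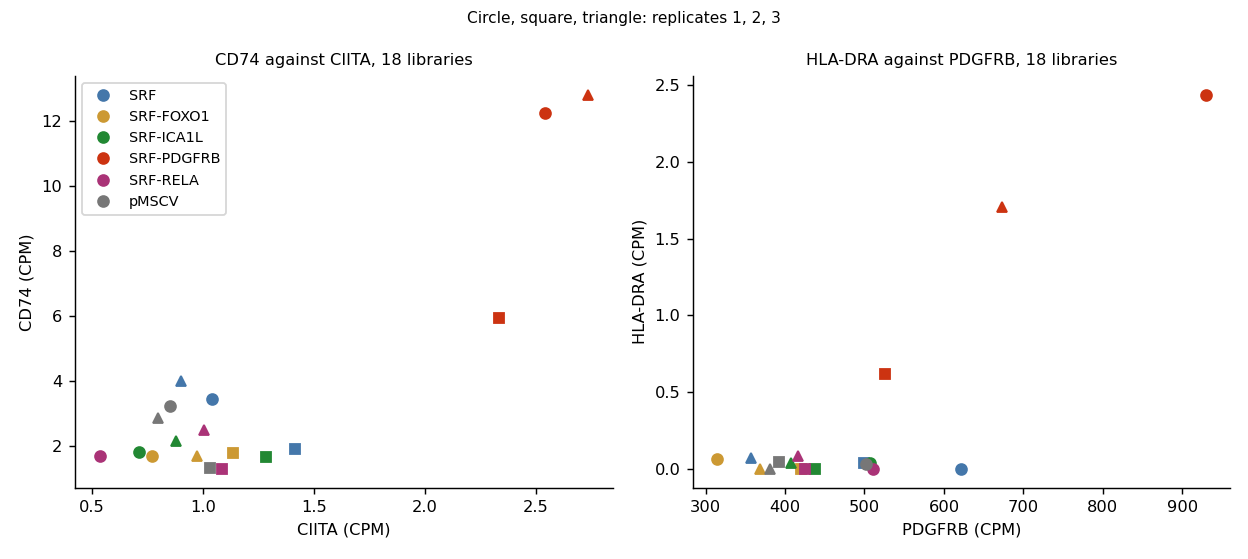
Left, CD74 against CIITA, and right, HLA-DRA against PDGFRB, both in CPM on linear axes, 1 point per library (18 in each panel), coloured by group and with a circle, square and triangle for replicates 1, 2 and 3. On the left the 3 SRF-PDGFRB points stand apart at 2.33 to 2.74 CPM of CIITA. On the right SRF-PDGFRB replicate 2 overlaps with other groups in PDGFRB (526 CPM) but not in HLA-DRA (0.618 CPM). PDGFRB reads in SRF-PDGFRB are of the native gene and the fusion together, and a link with HLA-DRA was not tested.

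Other class II loci, a list of 13, had few reads. HLA-DRB3 and HLA-DRB4 were not analysed here, and 7 of the other 11 (HLA-DRB6, HLA-DRB9, HLA-DQA2, HLA-DQB2, HLA-DQB1-AS1, HLA-DPA2 and HLA-DPB2) had 0 reads in every library. HLA-DRB5 had 15, 0 and 7 reads in SRF-PDGFRB replicates 1, 2 and 3 (0.522, 0 and 0.362 CPM) and 3 elsewhere, in SRF replicate 3. HLA-DQB1, a beta chain of HLA-DQ, had 7, 0 and 8 reads in SRF-PDGFRB (0.244, 0 and 0.413 CPM) and 2 elsewhere, in SRF-FOXO1 replicate 2. HLA-DQB1 in SRF-PDGFRB was 5.21 times a floor of 3 reads for pMSCV, which leaves out the counting error of the SRF-PDGFRB reads. Replicate 2 of SRF-PDGFRB, the lowest for the DR chains, had 0 reads of both loci. HLA-DQA1, the alpha chain of HLA-DQ, had 1 read there and 3 elsewhere, and HLA-DOB 3 and 6. None of these loci passed the count filter.

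The factors that bind class II promoters, a list of 8, did not part SRF-PDGFRB from the rest: in 0 of 8 were its 3 libraries above the other 15, where 0.449% of all genes with a count were. RFX5, the DNA-binding subunit of RFX, lay at 64.3 to 81.7 CPM against 54.1 to 75.5 elsewhere, and CREB1 at 67.1 to 73.4 against 50.7 to 69.8. By edgeR's test 0 of the 8 were called in the 7 comparisons without SRF-PDGFRB, with an unadjusted p under 0.05 in 2 of 56 tests. With the replicate block 1 test of the 56 was called. NFYA, a subunit of NF-Y, was lower in SRF-FOXO1 than in pMSCV (log2 difference -0.36, SE 0.08, edgeR adjusted p 0.0130), where 7.03% of all genes were called. Interferon-gamma signalling, a list of 13 that runs from the ligand to CIITA's own activators, had 1 of 13 above: SOCS1, a feedback inhibitor of JAK kinases, at 9.12, 13.9 and 21.0 CPM against 2.94 to 8.51 elsewhere. IFNG, the ligand, and IRF8 had 0 reads in each of the 18 libraries. JAK1, a receptor-bound kinase, lay at 219.6 to 236 CPM against 164 to 238. IRF1, which acts at the CIITA promoter, lay at 36.3 to 48.8 CPM against 19.1 to 40.3. JAK1 and IRF1 thus overlapped with other groups. By edgeR's test 0 of the list were called in the 7 comparisons, with or without the block, and 2 of 77 tests had an unadjusted p under 0.05 without it. SOCS1 and IRF1 were named after their values were seen, as were CD40, CD86, IDO1 and GBP4 below.

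Genes of class II processing and turnover, a list of 13, had 1 above: CTSS, the protease that trims the invariant chain in antigen-presenting cells, at 32.1, 30.9 and 41.7 CPM against 6.66 to 29.8 elsewhere. The log2 difference of CTSS over SRF-ICA1L, the group with its lowest mean, was 1.64 (SE 0.35). Its mean was 34.9 CPM in SRF-PDGFRB, 20.8 in pMSCV and 23.4 in SRF. The other fusions had 12.6 (SRF-FOXO1), 10.4 (SRF-ICA1L) and 17.2 (SRF-RELA). CTSB, at 1730.2 to 3114 CPM against 1319.7 to 4237, and CTSL, at 120.0 to 147 against 84.0 to 154, are lysosomal proteases read in all groups. In the 7 comparisons without SRF-PDGFRB 0 of this list were called by edgeR's test, with an unadjusted p under 0.05 in 12 of 77 tests. Of all genes 3.83% to 15.1% had one, depending on the comparison. With the block 10 of the 77 were called, 4 higher and 6 lower, from 5 genes, beside 0.243% to 7.23% of all genes, depending on the comparison. LGMN, the lysosomal protease legumain, was higher in SRF-FOXO1 than in pMSCV (log2 difference 0.84, SE 0.12, edgeR adjusted p 0.000634 with the block), where 7.03% of all genes were called. CTSB was lower in SRF-ICA1L than in SRF (-0.61, SE 0.12, edgeR adjusted p 0.00992 with the block), where 4.73% were called. The others were CTSD, CTSL and CD83. Co-stimulation and checkpoint ligands, a list of 8, had 0 above. CD40 lay at 4.46 to 6.56 CPM against 1.45 to 5.64, and CD86, a co-stimulatory ligand of T cells, stayed below 1 CPM in every library.

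CD274, the checkpoint ligand PD-L1, was the 1 gene of the 5 pathway lists called without the block in the 7 comparisons that the choice of genes did not use. It was higher in SRF-FOXO1 than in SRF, at 20.9 ± 6.95 against 7.50 ± 0.928 CPM (SD, n = 3), with a log2 difference of 1.54 (SE 0.34, edgeR adjusted p 0.0392), where 1.36% of all genes were called. In SRF-PDGFRB it stood at 17.6, 40.6 and 16.3 CPM, with replicate 2 the highest, where HLA-DRA, HLA-DRB1, HLA-DPA1, CD74 and CIITA were lowest. With the block 4 of the 35 tests of its list were called, each higher in SRF-FOXO1: CD274 and PDCD1LG2, which encodes the related ligand PD-L2, against both pMSCV and SRF. Of all genes, 7.03% and 7.23% were called in these comparisons with the block. The fitted log2 differences of PDCD1LG2 were 0.89 over pMSCV (edgeR adjusted p 0.0109 with the block) and 0.68 over SRF (edgeR adjusted p 0.0403 with the block).

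Known interferon-gamma-induced genes were a list of 13 that overlaps with the signalling list. In 7 of 13 the 3 SRF-PDGFRB libraries lay above the other 15, beside 0.449% of all genes with a count. The 7 include CXCL9, APOL4 and SOCS1, the last counted above in the signalling list. The list was chosen with earlier results of these data known, so nothing is read from that share. CXCL9, a chemokine for T cells, stood at 8.11, 1.24 and 3.10 CPM in replicates 1, 2 and 3 against 0 to 0.139 elsewhere, in the same replicate order as HLA-DRA. CXCL10, of the same family, stood at 59.9, 29.9 and 40.9 CPM against 0.0430 to 4.87, again in that order. IDO1, which degrades tryptophan, stood at 21.4, 5.56 and 14.9 CPM against 0.104 to 5.06. Those 3 genes were thus highest in replicate 1 and lowest in replicate 2. APOL4, a member of the apolipoprotein L family, stood at 6.30, 7.14 and 10.4 CPM against 0.245 to 1.02, in another order. The guanylate-binding proteins were split: GBP1 (109.9 to 134 CPM against 48.8 to 96.4) and GBP5 (55.0 to 79.7 against 11.3 to 46.9) lay apart, while GBP2 (134 to 166 against 119 to 375) and GBP4 overlapped. CXCL9 and APOL4 had been seen with HLA-DRA in earlier results of these data and support nothing.

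In SRF-PDGFRB against pMSCV, APOL4 had a fitted log2 difference of 4.15 (SE 0.41). The list's median log2 difference, with CXCL9 and APOL4 included, was 1.36, beside 0.00 for all genes, and that of co-stimulation and checkpoint ligands 0.43. It was -0.03 for promoter factors, 0.04 for interferon-gamma signalling, and 0.05 for processing and turnover. In the 7 comparisons without SRF-PDGFRB, 0 of the 13 interferon-gamma-induced genes were called by edgeR's test, with an unadjusted p under 0.05 in 20 of 91 tests, beside the 3.83% to 15.1% of all genes given above. The filter was not repeated for this list without SRF-PDGFRB. Its tests and medians thus include CXCL9, which had 12 reads in the 15 libraries outside SRF-PDGFRB, so its tests could show little. With the block 5 of the 91 were called. IDO1 was lower in SRF-FOXO1 (-1.41, SE 0.39) and in SRF-ICA1L (-2.12, SE 0.42) than in pMSCV, with edgeR adjusted p of 0.0420 and 0.00892. CXCL11, a chemokine of the CXCL9 family, was higher in SRF-RELA than in pMSCV (4.22, SE 0.89, edgeR adjusted p 0.0463). WARS1, a tRNA synthetase, was higher in SRF-FOXO1 than in pMSCV (0.47, SE 0.13, edgeR adjusted p 0.0434) and SRF (0.50, SE 0.13, edgeR adjusted p 0.0292). The block was applied to these lists after the unblocked values had been seen, and the genes it called were named from their values. With it 0.243% to 7.23% of all genes were called in these 7 comparisons. The median log2 difference of the 13 in those comparisons ran from -0.04 to 0.38.

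**Figure D4:**
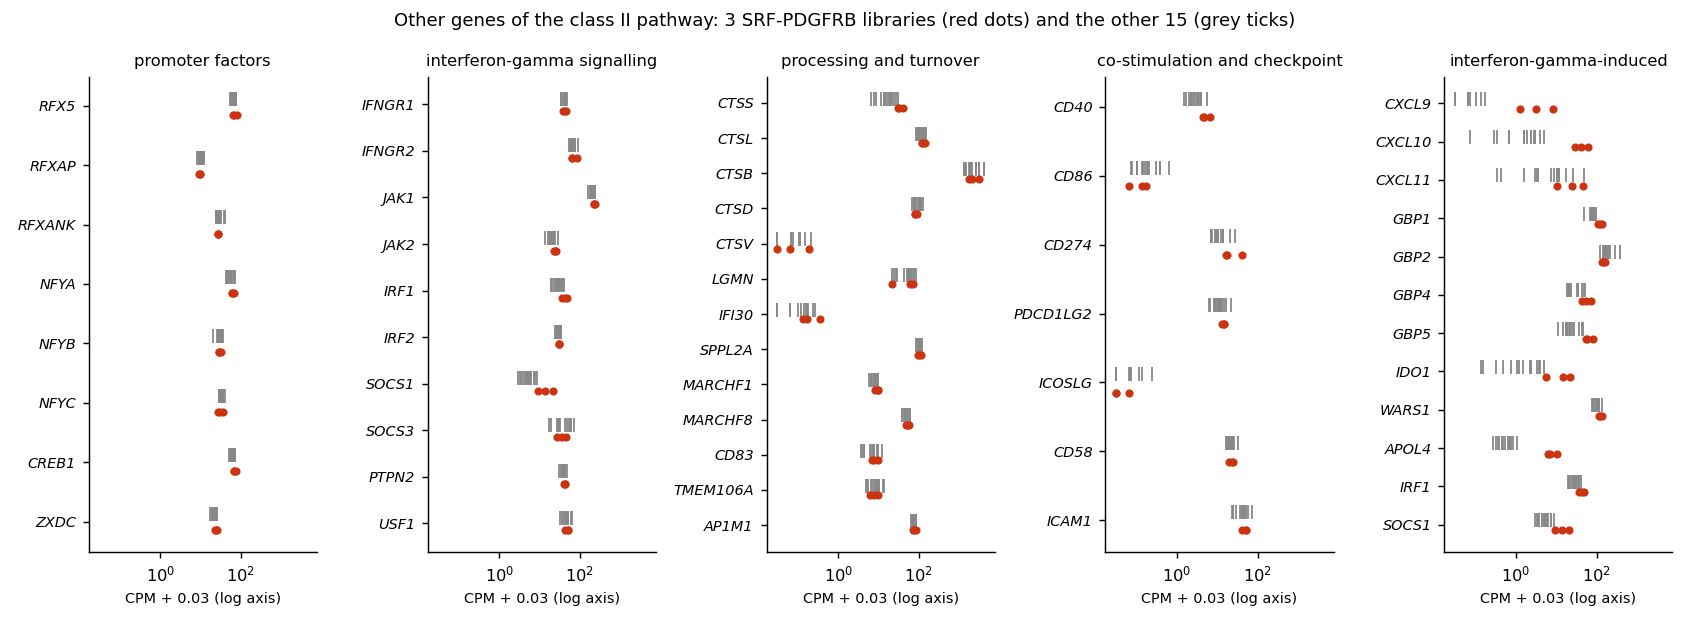
CPM plus 0.03 (log axis) of genes of the 5 pathway lists with reads, with the 3 SRF-PDGFRB libraries as red dots and the other 15 as grey ticks. CXCL9, CXCL10, IDO1, APOL4, GBP1, GBP5, SOCS1 and CTSS have their 3 dots to the right of all ticks, and no promoter factor does.

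By the correlation of log2 CPM over the 18 libraries, the 6 fitted genes outside the set most like HLA-DRA were APOL4 (Pearson r 0.92), CXCL9 (0.92), ALOX5AP (0.91), LYPD6 (0.90), CEACAM1 (0.88) and XIRP1 (0.84). Of the set, CD74 had 0.89, CIITA 0.80, HLA-DPA1 0.78, HLA-DPB1 0.50 and HLA-DMA 0.06. The libraries of a group are not independent points, and these values rest on SRF-PDGFRB. Over the 15 libraries without it, they were 0.19 for CD74, -0.14 for CIITA, -0.24 for HLA-DPA1, 0.30 for APOL4 and -0.49 for CXCL9, where HLA-DRA had 11 reads in all.

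Markers of cells that carry class II molecules at rest were low. Of 11 leukocyte markers 9 were below 1 CPM in every library, with TYROBP at 0 throughout, and the list summed to 7.00 to 8.74 CPM in SRF-PDGFRB and 4.60 to 8.92 elsewhere. CSF1R, a receptor of the macrophage lineage, made up most of that sum, at 4.60 to 6.55 CPM against 3.09 to 6.37. Of 5 dendritic cell markers 4 were below 1 CPM, with CD1C at 0 throughout, and CLEC9A, FLT3 and XCR1 had 0 reads in SRF-PDGFRB. The dendritic list summed to 2.75 to 5.15 CPM in SRF-PDGFRB and 0.960 to 2.45 elsewhere, and all of the former was BATF3, a transcription factor also found in other cells. Its part in the class II values was not tested. Each of 5 B cell markers was below 1 CPM, at a sum of at most 0.310 CPM. The T and NK cell list summed to 1.19 to 1.98 CPM in SRF-PDGFRB and 1.00 to 4.55 elsewhere, with CD3E at 0 throughout. In that list GZMA, a granzyme of T and NK cells, was higher in SRF (1.64 to 3.12 CPM) than in pMSCV (0.0430 to 0.106 CPM), with a log2 difference of 4.99 (SE 0.79, edgeR adjusted p 0.0483), where 0.027% of genes were called. It stood at 0.871, 0.172 and 0.0516 CPM in SRF-PDGFRB.

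All 8 mesenchymal markers were read in each library, with sums of 17275 to 18790.4 CPM in SRF-PDGFRB and 16365 to 41729.7 elsewhere. Of these THY1, a surface protein of mesenchymal cells, was higher by edgeR's test in SRF-FOXO1 and SRF-ICA1L than in pMSCV, where 0.928% and 0.469% of all genes were called. It was also higher in SRF-ICA1L than in SRF, where 0.782% were called, and stood at 38.3 to 59.7 CPM in SRF-PDGFRB. With the block, 9 of 56 tests of mesenchymal markers were called in the 7 comparisons, from 4 genes, and 3 of 14 of T and NK cell markers, from 1 gene. Endothelial markers had 3 of 28 called, from 2 genes, epithelial ones 9 of 21, from 3 genes, and leukocyte and dendritic ones 0. Of all genes, 0.243% to 7.23% were called with the block, depending on the comparison. Endothelial markers summed to 16.0 to 22.1 CPM in SRF-PDGFRB and 7.16 to 31.4 elsewhere, and epithelial markers to 52.2 to 107 and 50.9 to 232. Library totals ran from 19362319 counts, in SRF-PDGFRB replicate 3, to 29806771. SRF reads lay at 57.3 to 64.4 CPM in pMSCV and at 151 to 1122 in the other 15 libraries, and ICA1L and RELA were highest in the libraries labelled with them. FOXO1 reads, at 9.79 ± 3.99 CPM in the libraries labelled SRF-FOXO1 and 12.6 ± 4.27 in pMSCV (SD, n = 3), do not check that label.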

How the data were processed

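RNA was measured by stranded mRNA sequencing in 18 libraries, per the labels' protocols. The authors deposited raw read counts per Ensembl gene identifier, 1 column per library. Per the submitters' processing notes, reads passed FastQC 0.11.8, Trimmomatic 0.39, HISAT2 and featureCounts of Subread 2.0.3, on GRCh38. The annotation release and the strand setting are not given in the sources used here. Symbols came from a table of gene names (61369 of 61487 identifiers), and loci, exon lengths and overlaps from GENCODE release 29. CPM is a library's count divided by its total, without TMM factors.

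Tests used edgeR 4.0.16 in R 4.3.3 on all libraries, with 1 coefficient per group, TMM scaling, filterByExpr (minimum count 10), robust quasi-likelihood F tests, two-sided, and Benjamini-Hochberg adjustment over 18544 genes. The common biological coefficient of variation was 0.225. Each SE printed with an edgeR log2 difference is the size of that difference divided by the square root of its F statistic. The procedure was tested on simulated data. Ratios of summed counts carry exact binomial intervals, except those over a floor of 3 reads, which carry none.

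Members and lists were chosen with earlier results of these data known. The named genes are all members, all other class II loci with a group mean of at least 0.1 CPM, up to 3 called genes per list or otherwise the 2 with the highest mean CPM, and the 6 genes most like HLA-DRA. Replicate numbers were taken to pair libraries across groups, from the values and not the labels: deviations from group means correlated over 0.1 in 44 of 45 same-number pairs (median 0.38, against -0.18 for 90 other pairs), all but replicate 1 of SRF and SRF-FOXO1. Some genes counted in the lists are not reported here by name.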

Additional observations from a re-analysis of the deposited data

How the results depend on the processing

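Counts were refitted with the replicate block, with either library totals or DESeq2 factors as the scaling, by a Wald test (DESeq2 1.42.0), unfiltered or with a floor of 10 counts in each library, on the 2 groups alone, and with each compared library left out in turn. Directions were followed for HLA-DPA1, CD74 and CIITA in the SRF-PDGFRB comparisons. In the other comparisons they were followed for the 4 differences named above with an unadjusted edgeR p under 0.05. None of these turned in a setting where the gene was fitted. Other directions were not compared. In the 7 comparisons without SRF-PDGFRB the count of genes of the set called stayed at 0 in each setting. The count in the SRF-PDGFRB comparisons moved. Against pMSCV (1 called) it was 4 by the Wald test, 3 without a filter, 0 with the floor of 10 counts, 4 with the replicate block, 0 with only the 2 groups, and 0 to 3 with a library left out. Against SRF (2 called) it was 4 by the Wald test, 3 without a filter, 0 with that floor and 4 with the replicate block. It was 0 with only the 2 groups, and 0 to 3 with a library left out. Against SRF-FOXO1 (3 called) it was 4 by total count, by the Wald test, without a filter and with the replicate block. It was 1 with that floor, 0 with only the 2 groups, and 1 to 3 with a library left out. Against SRF-ICA1L (2 called) it was 4 by total count, by the Wald test, without a filter and with the replicate block. It was 1 with that floor, and 1 to 3 with a library left out. Without a filter, the 4 called against SRF-FOXO1 or SRF-ICA1L included HLA-DRB1 and not CIITA. Against SRF-RELA (2 called) it was 4 by the Wald test and the replicate block, and 3 by total count and without a filter. It was 1 with that floor, 0 with only the 2 groups, and 0 to 3 with a library left out. With the floor of 10 counts, 3 genes of the set could be tested, so fewer calls follow from the filter itself. The cause of the other shifts was not tested. The replicate block changed no call of the set in the other 7 comparisons, and added calls in 4 of the 5 pathway lists (given beside each list). The log2 difference of CIITA over pMSCV ran from 1.42 to 1.62, of CD74 from 1.75 to 2.31 and of HLA-DPA1 from 2.33 to 2.96. Depth limits HLA-DRB1, HLA-DPB1, HLA-DMB and HLA-DOA most, with at most 38 reads in a group.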
